A study of Mus musculus with 32 samples.

Results

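Liver was compared with intrascapular brown adipose tissue (BAT) in obese mice of the vehicle arm of a study of auranofin, a gold-containing anti-rheumatic drug. RNA sequencing values of 4 liver and 4 BAT libraries were used, 8 of the 32 libraries that the study made from 4 tissues. The comparison covers 13881 of the 54532 genes in the deposited table, those with a mean of 0.5 FPKM or more over the 8 libraries. FPKM are reads scaled to gene length and to a library size. In the deposited values this size was not the read total. Liver library 1 held 18109130 reads on genes and had a size of 13267136. BAT library 2 held 15739660 reads on genes and had a size of 15832697. All mice were wild-type C57/Bl6j animals that ate a diet with 60% fat for 12 weeks and then received vehicle 3 times a week for 4 weeks. What the vehicle was, the sex of the mice, the number of animals and whether RNA was pooled are not given in the sources used here. None of the 32 libraries is from mice on another diet, so nothing here separates a tissue difference from an effect of the diet in 1 tissue. Nothing in the labels says that libraries came from separate animals, so p-values measure the spread between libraries, which may in part be technical.

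Hepatocytes, the main cells of the liver, make most of the proteins of blood plasma, make bile acids and urea, release glucose and ketone bodies, and export lipid as lipoproteins. Brown adipocytes store triglyceride in many small droplets and burn fatty acids and glucose in densely packed mitochondria, where the uncoupling protein UCP1 turns the proton gradient into heat. Both cell types oxidise fatty acids, store lipid and answer to insulin and to catecholamines, often with different genes for the same step.

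The 4 liver libraries held 15212904 to 18109130 reads on genes, and the 4 BAT libraries 13845882 to 15739660. Pearson correlations of log2(FPKM + 1) across genes were 0.984 to 0.987 between liver libraries, 0.975 to 0.987 between BAT libraries and 0.529 to 0.564 between a liver and a BAT library. Markers of hepatocytes, 15 genes that include Alb (albumin), Ttr (transthyretin) and Hnf4a (a hepatocyte transcription factor), summed to 80500 to 102400 FPKM in liver, against 1.74 to 4.6 FPKM in BAT. Cps1, Tat, Hnf4a, Cyp7a1 and F2 had no read in any BAT library. Markers of brown adipocytes summed to 303.5 to 469.7 FPKM in liver, most of it Elovl3, against 6211 to 10710 FPKM in BAT, and Ucp1, Dio2, Zic1, Ebf2 and Lhx8 had no read in any liver library. Each tissue thus carried the defining genes of its label.

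BAT library 4 stood apart from the other BAT libraries. Skeletal muscle markers, 14 muscle genes, summed to 1.77, 1.21, 1.43 and 1.7 FPKM in liver libraries 1 to 4, against 99.2, 39.1, 314.6 and 808.3 FPKM in BAT libraries 1 to 4. Acta1, the skeletal muscle actin, was at 0, 0.0569, 0 and 0 FPKM in liver, against 15.6, 1.69, 80.8 and 207.2 FPKM in BAT. Genes of 500 to 1000 nucleotides were at a median of -0.26 (log2) from their BAT mean in BAT library 4, and at a median of 0.05 to 0.11 in the other 3 BAT libraries. Among genes over 6000 nucleotides the median was 0.05 in BAT library 4 and -0.02 to -0.01 in the others. Liver library 4 went the same way to a smaller extent. Its genes of 500 to 1000 nucleotides were at -0.15 from their liver mean, beside -0.005 to 0.12 in the other liver libraries. Over 6000 nucleotides it was at 0.03, beside -0.02 to 0.01. The part of muscle RNA or of this length trend in the tissue differences was not tested. The counts over the gene lists were repeated without BAT library 4, though not without liver library 4. Those that changed are given in the closing section.

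Of the 13881 genes, 9863 (71.1%) passed the test between tissues (limma, Benjamini-Hochberg adjusted p under 0.05). In liver, 5109 genes (36.8%) were higher and 4754 (34.2%) lower. A difference of 2-fold or more was called in 4622 genes (33.3%), of which 2467 (17.8%) were higher and 2155 (15.5%) lower in liver. These shares are the background against which each gene list here has to be read. Members of all lists were chosen with earlier results of these data known, so list counts describe the listed genes only. Some lists were also drawn up around genes known from 1 tissue, so their direction is no finding. They include hepatic glucose handling and amino acid breakdown, the urea cycle, bile acid and xenobiotic metabolism and plasma proteins. Liver and fat hormones, and hepatocyte and adipocyte transcription factors, are further cases. The split of all calls into higher and lower depends on the scale. Genes higher in liver were 51.8% of the calls on the deposited FPKM scale, but 35.2% on the TPM scale and 41.3% after quantile normalisation. Scaling by medians of ratios gave 53.0%, which is no independent check. The deposited library sizes already matched medians of ratios in all 32 libraries. The median over all genes, 0.02 on the deposited scale, was -0.30 on the TPM scale and -0.13 after quantile normalisation. Single genes moved further than these medians, so a small difference, above all of an abundant gene, holds only relative to the deposited scaling. All differences are liver minus BAT on the log2(FPKM + 1) scale, where genes at low levels appear to differ less than their FPKM do, and ± stands for the SD over 4 libraries unless SE is written. In bulk tissue, fewer cells of a type and less RNA per cell cannot be told apart.

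The share of reads taken by the 10 most read genes was 17.3%, 17.2%, 17.6% and 19.7% in liver libraries, against 21.8%, 21.0%, 25.6% and 28.8% in BAT libraries. The groups did not overlap (two-sided exact permutation test, p = 0.0286, the smallest that 4 against 4 libraries allow). Without the mitochondrial genome and non-coding genes the order turned round, to 16.5% to 19.2% in liver against 10.4% to 15.2% in BAT (exact permutation p = 0.0286). Genes of the mitochondrial genome took 4.25% to 4.89% of reads in liver, against 16.7% to 23.0% in BAT. Reads fell on 19186 to 19837 genes in liver, against 19846 to 20459 in BAT (exact permutation p = 0.0286), but the groups overlapped for genes with 10 reads or more (13241 to 13666 in liver, against 13608 to 14111 in BAT, exact permutation p = 0.0571).

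The largest differences toward liver were in genes of plasma proteins and lipid binding. Alb was at 42495, 39644, 44352 and 56133 FPKM in the 4 liver libraries, against 0, 0.809, 0.0937 and 0 FPKM in the 4 BAT libraries, a difference of 15.22 ± 0.20 (SE, limma adjusted p = 4.46e-12). No BAT library came near a liver library. Fabp1, the fatty acid binding protein of liver and gut, averaged 12255 ± 930 FPKM in liver and 0.0571 ± 0.114 FPKM in BAT, where it had 2 reads in all. The apolipoproteins Apoa2, Apoa1 and Apoc3 differed by 13.16, 12.86 and 11.12, and the thyroxine and retinol carrier Ttr by 13.31. Other genes at the top were Gc (the vitamin D binding protein, 12.08), Ahsg (fetuin-A, 11.54), Ambp (the precursor of alpha-1-microglobulin, 11.30), the serpin Serpina3k (11.83) and the major urinary protein Mup3 (12.44). Mup3 and Serpina3k belong to families of near-identical copies, so their own values are uncertain.

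The largest differences toward BAT were in a cytochrome oxidase subunit, the uncoupling protein and genes of fat storage. Ucp1 had no read in any liver library and stood at 2931, 2656, 2740 and 1697 FPKM in BAT, at least 65498-fold lower in liver when 3 reads over the 4 liver libraries are taken as the floor. Cox8b, the heart and brown fat form of cytochrome oxidase subunit 8, was at 0, 0.243, 0 and 0 FPKM in liver, against 4580, 4211, 4637 and 2357 FPKM in BAT (-11.82 ± 0.21 SE). BAT library 4 was the lowest of its group for both genes. Plin1, which coats the fat droplets of adipocytes, had no read in liver and averaged 349 ± 17.7 FPKM in BAT. The fatty acid binding proteins Fabp3 and Fabp4 differed by -10.22 and -8.94, and the hormone genes Adipoq (adiponectin) and Lep (leptin) by -9.22 and -6.55. Rgcc, a cell cycle regulator, differed by -8.62, Sncg (gamma-synuclein) by -7.61, Cav1 (the caveolar coat protein) by -7.52 and Adig (adipogenin) by -7.51. Prkar2b, a regulatory subunit of protein kinase A, was at 0.231 ± 0.0789 FPKM in liver and 299.9 ± 25.99 FPKM in BAT (-7.93).

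The promoters of genes from these groups are shown because hepatocyte nuclear factor 4 (HNF4) is a known regulator of liver genes and nuclear respiratory factor 1 (NRF1) of mitochondrial genes. Each is 300 bases, from 250 before to 50 after the start of the gene, on the coding strand, from RefSeq on build GRCm38.p6, with the motif named for that gene in capitals and any other motif unmarked. Cyp8b1 (chr9:121916256-121916555, minus strand), the sterol 12-alpha-hydroxylase of bile acid synthesis, holds the HNF4 motif CAAAGTCCA, whose first base is at -67 from the start. Uqcrc1 (chr9:108936398-108936697, plus strand), a core subunit of complex III, holds the motif of NRF1, in the palindromic form searched, from 30 bases after the start. Cox8b (chr7:140900397-140900696, minus strand) holds the letters TATAAA from 4 bases after the start, and Cyp8b1 holds them too. Ucp1 (chr8:83290098-83290397, plus strand) holds none of the 8 motifs searched.
Cyp8b1: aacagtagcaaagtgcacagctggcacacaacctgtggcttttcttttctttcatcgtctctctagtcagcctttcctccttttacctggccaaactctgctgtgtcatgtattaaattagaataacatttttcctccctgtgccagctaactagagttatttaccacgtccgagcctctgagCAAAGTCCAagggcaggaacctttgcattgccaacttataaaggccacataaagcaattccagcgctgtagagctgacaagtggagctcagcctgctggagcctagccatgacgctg
Uqcrc1: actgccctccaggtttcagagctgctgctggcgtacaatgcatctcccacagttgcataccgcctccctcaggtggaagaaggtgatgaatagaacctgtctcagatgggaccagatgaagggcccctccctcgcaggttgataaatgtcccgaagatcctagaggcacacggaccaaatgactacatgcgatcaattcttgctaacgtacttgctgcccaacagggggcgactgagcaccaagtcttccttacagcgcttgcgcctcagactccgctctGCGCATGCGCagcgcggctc
Cox8b: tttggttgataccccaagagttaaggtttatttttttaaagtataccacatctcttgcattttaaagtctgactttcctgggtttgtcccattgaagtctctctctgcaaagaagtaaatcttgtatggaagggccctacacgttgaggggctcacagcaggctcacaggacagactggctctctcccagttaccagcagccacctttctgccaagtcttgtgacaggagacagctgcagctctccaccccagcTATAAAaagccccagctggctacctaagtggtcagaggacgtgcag
Ucp1: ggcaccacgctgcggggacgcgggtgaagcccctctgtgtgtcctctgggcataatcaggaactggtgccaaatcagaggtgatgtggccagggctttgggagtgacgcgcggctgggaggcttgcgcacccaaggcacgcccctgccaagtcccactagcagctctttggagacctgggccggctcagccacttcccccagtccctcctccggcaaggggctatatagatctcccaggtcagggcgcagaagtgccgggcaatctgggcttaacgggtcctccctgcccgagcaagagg

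Motifs were searched on both strands, overlaps between motifs were allowed, and the motifs were chosen after the data were seen, so the shares are descriptions with no test. Promoters were found for 373 of the 473 protein-coding genes that were 16-fold or more higher in liver, for 85 of the 120 that were 16-fold or more lower, and for 83 of the 98 nuclear genes of the respiratory chain and the tricarboxylic acid cycle. The HNF4 motif was in 11 of the 373 liver promoters (2.95%), in 0 of the 85 BAT promoters and in 0.477% of all 27025 promoters of this length. Besides Cyp8b1, it was found before Cyp3a11, Cyp2c70 and related Cyp2c genes, so the 11 promoters may not be independent. The NRF1 motif was in 5 of the 83 mitochondrial promoters (6.02%), in 0 of the 373 liver promoters and in 1 of the 85 BAT promoters (1.18%). It was in 2.14% of the promoters of tested protein-coding genes and in 0.977% of all. The 5 mitochondrial genes differed between tissues by -0.23 (Atp5g2, which did not pass the test) to -2.05 (Uqcrc1). The cyclic AMP response element TGACGTCA was in 7 of the 83 (8.43%), in 2 of the 373 (0.536%), in 2 of the 85 (2.35%), in 3.13% of the promoters of tested genes and in 1.88% of all. TATAAA was in 20.4% of the liver promoters, in 14.1% of the BAT promoters, in 7.23% of the 83 mitochondrial promoters, in 7.47% of the promoters of tested genes and in 14.2% of all. For FOXA (TGTTTAC) the shares were 5.36% of the liver, 2.35% of the BAT and 1.2% of the mitochondrial promoters, 2.56% of those of tested genes and 3.55% of all. For C/EBP (TTGCNNCAA) they were 3.49%, 3.53%, 1.2%, 1.7% and 2.12% in that order, for ERR (TCAAGGTCA) 0.268%, 0%, 2.41%, 0.271% and 0.407%, and for the palindromic EBF motif 1.07%, 0%, 1.2%, 0.997% and 0.914%.

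Some abundant genes stood at like levels. In 97 protein-coding genes, both tissues had 50 FPKM or more and differed by less than 0.25. Over all 13881 genes tested, at any level, 4018 did not pass the test, which by itself does not show like levels. The ferritin heavy chain Fth1 was at 2669, 2668, 2719 and 2501 FPKM in liver, against 2519, 2236, 2769 and 2149 FPKM in BAT. Pck1, which makes phosphoenolpyruvate for glucose release in liver and for glycerol synthesis in fat, was at 1228, 1001, 1386 and 512 FPKM in liver, against 1062, 815, 774 and 1271 FPKM in BAT. Its difference of 0.01 had a 95% interval of -0.68 to 0.70, wide because liver library 4 was low and BAT library 4 high. Acat1, the mitochondrial thiolase that both makes and uses ketone bodies, was at 242 ± 14.6 FPKM in liver and 249 ± 12.8 FPKM in BAT, and Actb (beta-actin) at 327 ± 44.9 and 382 ± 62.5 FPKM in the same order. Both were called lower in liver on the TPM scale (limma, Acat1 by -0.43 and Actb by -0.61) and after quantile normalisation (-0.63 and -0.81).

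**Figure D1:**
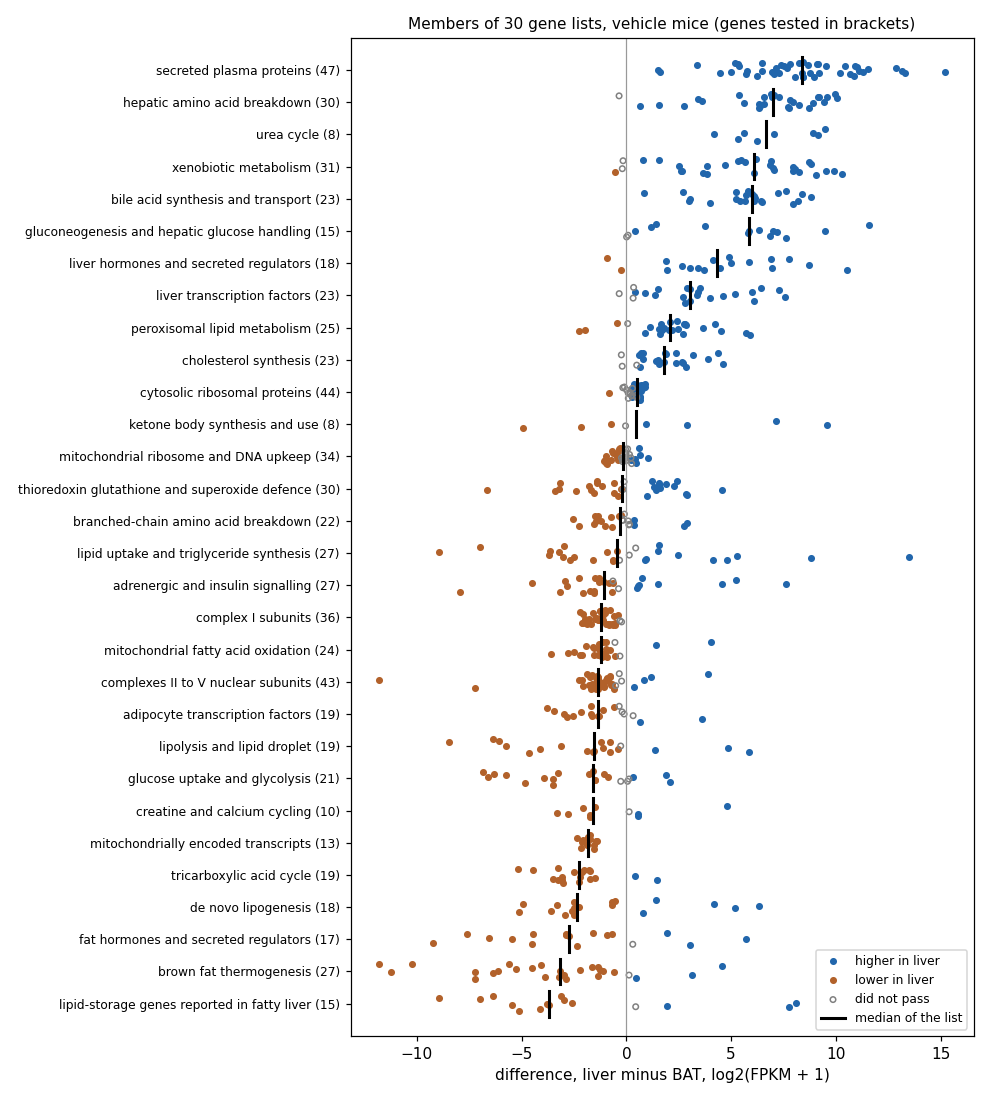
Each point is 1 gene of 1 of 30 gene lists, placed by its difference between liver and BAT (n = 4 libraries each). Filled points passed the test, open points did not, and black bars are list medians, which run from -3.70 for lipid-storage genes reported in fatty liver to 8.39 for secreted plasma proteins.

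Genes of the respiratory chain were lower in liver almost throughout. Of 36 nuclear subunits of complex I, all tested, 34 were lower and 0 higher, with a median of -1.21 beside 0.02 over all genes. Ndufs1, its largest subunit by mass, was at 18.6, 20.4, 19.3 and 19.1 FPKM in liver, against 93.0, 80.3, 87.6 and 95.2 FPKM in BAT, and the groups were far apart. Of 43 nuclear subunits of complexes II to V, 36 were lower and 4 higher (median -1.33). Sdha of complex II, Uqcrc1 of complex III and Atp5b of complex V differed by -1.88, -2.05 and -2.26. All 13 transcripts encoded by the mitochondrial genome were lower (median -1.84), from -1.42 in mt-Co1, a core subunit of complex IV, to -2.35 in mt-Co2. BAT library 4 held the highest mt-Co1 of its group, 60103 FPKM beside 34743 to 39183 FPKM. Its nuclear complex I genes summed to 5884 FPKM beside 7563 to 9565 FPKM in the other BAT libraries. Genes of 500 to 1000 nucleotides were also low in this library (median -0.26). The part of gene length in this contrast was not tested.

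Atp5g1 went the other way from most genes of ATP synthase. It is 1 of 3 genes for the same c subunit of the membrane ring, and in rodents its low level in brown fat has been linked to the small amount of ATP synthase there. Atp5g1 was at 64.3, 55.8, 63.5 and 43.6 FPKM in liver, against 2.62, 2.88, 2.92 and 2.88 FPKM in BAT, 20.1-fold higher in liver (3.90 ± 0.12 SE, limma adjusted p = 2.13e-09). Atp5g3, a second gene of the ring, was 2.27-fold higher in liver (239 ± 24.9 FPKM, against 105 ± 14.3 FPKM in BAT), and Atp5g2 did not pass the test (54.4 ± 2.57 and 64.9 ± 11.9 FPKM). Atp5j, a stalk subunit, was also higher (0.86). The white fat depots had Atp5g1 at 7.488 ± 1.997 FPKM (epididymal) and 10.9 ± 3.33 FPKM (inguinal), between liver and BAT.

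Genes of the tricarboxylic acid cycle, which feeds the chain, were lower in liver with few exceptions. Of 19 genes, 17 were lower in liver and 2 higher, with a median of -2.26. Idh3a, the catalytic subunit of the NAD-dependent isocitrate dehydrogenase, was at 7.53, 8.76, 7.40 and 7.12 FPKM in liver, against 311, 308, 305 and 310 FPKM in BAT, 40.1-fold lower in liver (-5.16 ± 0.07 SE, limma adjusted p = 8.1e-12). The other subunits Idh3g and Idh3b differed by -3.52 and -2.51. The citrate synthase gene Cs was at 38.3 ± 4.39 FPKM in liver and 382 ± 16.04 FPKM in BAT. Of the succinyl-CoA ligase beta subunits, the GTP-forming Suclg2 was higher in liver (106 ± 6.29 FPKM, against 38.4 ± 1.90 FPKM in BAT) and the ATP-forming Sucla2 lower (53.0 ± 1.09 FPKM, against 458 ± 50.4 FPKM). The other gene called higher, Pcx (pyruvate carboxylase, which refills the cycle and starts glucose synthesis), differed by 0.41, but by -0.22 after quantile normalisation.

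Most genes of mitochondrial fatty acid oxidation were lower in liver. Of 24 genes, 20 were lower and 2 higher (median -1.23). Cpt1a, the liver form of carnitine palmitoyltransferase 1 that lets long-chain fatty acids into mitochondria, was at 126, 127, 138 and 155 FPKM in liver, against 7.49, 8.06, 6.28 and 8.13 FPKM in BAT, 18.2-fold higher (4.02 ± 0.10 SE). The muscle form Cpt1b was at 0.304 ± 0.136 FPKM in liver and 5.20 ± 1.57 FPKM in BAT (-2.21). BAT thus held both forms at like levels, with Cpt1a at 59.0% of the summed FPKM. Among the enzymes after it, Hadhb of the trifunctional protein differed by -3.59, the long-chain acyl-CoA dehydrogenase Acadl by -2.79, Hadha by -2.13 and the medium-chain enzyme Acadm by -1.57. Eci2, an enoyl-CoA isomerase found in peroxisomes and mitochondria, was higher in liver (1.40).

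**Figure D2:**
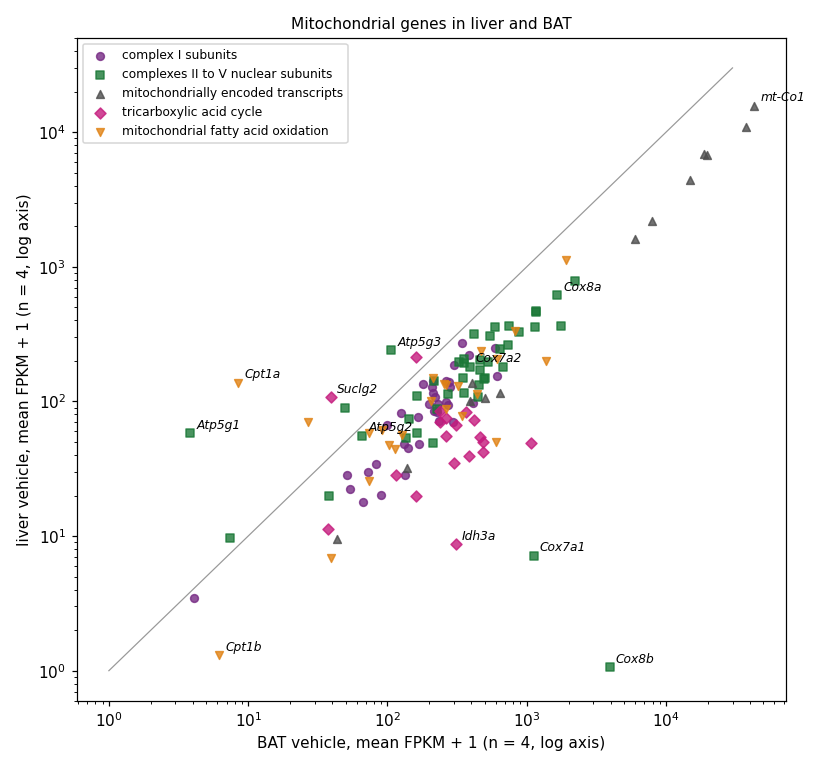
Mean FPKM + 1 of the genes of complex I, complexes II to V, the mitochondrial genome, the tricarboxylic acid cycle and fatty acid oxidation in liver (vertical) and BAT (horizontal), both on log axes, with the line of equal levels (n = 4 libraries each). Most points lie below the line, and Atp5g1, Atp5g3, Suclg2 and Cpt1a above it.

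Peroxisomal lipid metabolism ran against the mitochondrial lists. Of 25 genes, 21 were higher in liver and 3 lower, with a median of 2.06. Acox2, which shortens the side chain of bile acid precursors, was at 82.7, 83.9, 93.6 and 101 FPKM in liver, against 0.729, 0.580, 0.810 and 0.864 FPKM in BAT (5.71). Cat (catalase) averaged 1574 ± 80.0 FPKM in liver and 295 ± 25.9 FPKM in BAT. The thiolase Acaa1b and the carnitine octanoyltransferase Crot differed by 5.91 and 4.52. The 3 lower genes were Crat (carnitine acetyltransferase, -2.29), Abcd2 (a transporter of very long-chain acyl-CoA, -1.98) and Acox3 (-0.43).

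Of 34 genes of the mitochondrial ribosome and of DNA upkeep, 15 were lower and 6 higher in liver, with a median of -0.17, and on the TPM scale 24 were lower and 3 higher. Tfam, which packs and transcribes mitochondrial DNA, was at 14.2 FPKM in liver and 8.77 FPKM in BAT on average (0.64), while all 13 mitochondrial transcripts were lower in liver.

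Related genes for 1 step traded places in many of the pairs listed here. The pairs were chosen with earlier results of these data known, so their counts do not measure how common such exchanges are. Among 37 such pairs, the first gene led in all 4 liver libraries and the second in all 4 BAT libraries in 19. The first led in every library of both tissues in 9 pairs, the second in 2, and 7 gave another pattern. In 19 pairs the first gene was called higher and the second lower in liver, and in 12 both were lower. The clearest exchanges included glucose handling. Slc2a2 (the low-affinity transporter GLUT2) made up 99.85% of its sum with Slc2a4 (the insulin-regulated GLUT4) in liver and 0.0346% in BAT. Slc2a2 itself was at 79.7, 82.4, 84.7 and 80.4 FPKM in liver, against 0.0260, 0.0768, 0.0127 and 0.0371 FPKM in BAT. Hk2, the high-affinity hexokinase, was at 0.114, 0.879, 0.341 and 0.291 FPKM in liver, against 68.4, 68.3, 95.1 and 67.3 FPKM in BAT. No library of either tissue overlapped the other for these genes.

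The same exchange held for pyruvate kinase, where Pklr had no read in BAT and Pkm was at 4.99 ± 0.797 FPKM in liver, against 483 ± 36.5 FPKM in BAT. It also held for fructose bisphosphatase (Fbp1 and Fbp2), the glycerol channels (Aqp9 and Aqp7), methionine adenosyltransferase (Mat1a and Mat2a) and the deiodinases of thyroid hormone. Dio1 was at 130.4 ± 19.6 FPKM in liver with no read in BAT, and Dio2, which makes active thyroid hormone inside brown adipocytes, had no read in liver and 14.1 ± 3.48 FPKM in BAT. Pairs that did not exchange included the perilipins, since Plin2 led in both tissues (367 ± 25.5 FPKM in liver, 493 ± 89.1 FPKM in BAT), and the acyltransferases Dgat2 over Dgat1.  The cytochrome oxidase isoforms Cox7a1 and Cox8b led in BAT, and Cox7a2 and Cox8a in liver, yet all 4 genes were lower in liver.

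**Figure D3:**
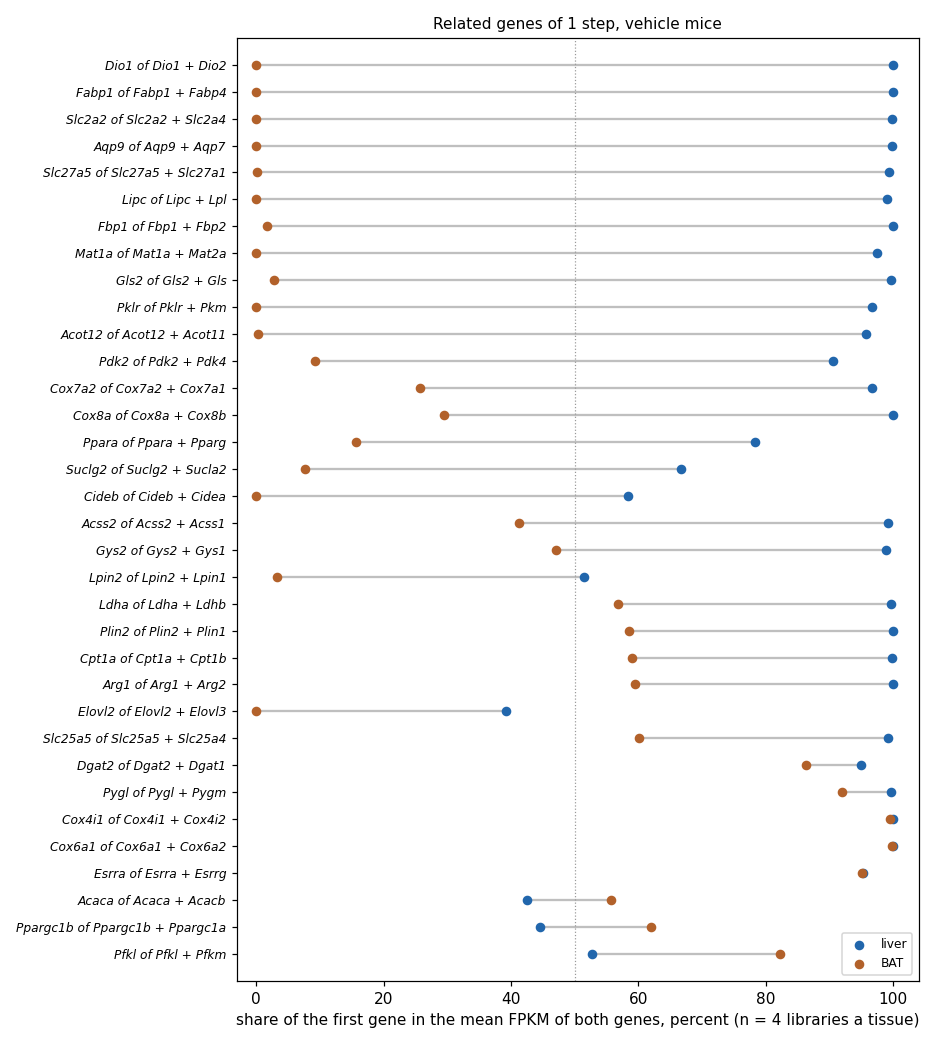
For the gene pairs named on the axis, the share of the first gene in the summed mean FPKM of the pair is shown in percent, with a point for liver and a point for BAT (n = 4 libraries each). Points far apart mark exchanges, such as Slc2a2 at 99.85% in liver and 0.0346% in BAT.

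Genes of hepatic glucose handling were mostly higher in liver, a direction that is no finding. Most listed genes of glucose uptake and glycolysis were lower. Of 15 genes of gluconeogenesis and hepatic glucose handling, 13 were higher in liver and 0 lower (median 5.85), and Pck1 and the glycogen phosphorylase gene Pygl did not pass. G6pc, which encodes glucose-6-phosphatase, was at 386, 204, 194 and 104 FPKM in liver, against 0, 0, 0 and 0.0883 FPKM in BAT. Khk, the fructokinase that traps fructose in liver, averaged 561 ± 84.2 FPKM in liver and 8.98 ± 1.39 FPKM in BAT. Of 21 genes of glucose uptake and glycolysis, 15 were lower in liver and 3 higher (median -1.61). Ldhb, the heart form of lactate dehydrogenase, differed by -6.87 and Pfkl, which is named the liver phosphofructokinase, by -3.52. Pdk4, which blocks pyruvate entry into the cycle, was at 4.89 ± 1.83 FPKM in liver and 866 ± 174 FPKM in BAT (-7.23).

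Fat synthesis split by step. Of 18 genes of de novo lipogenesis, 13 were lower in liver and 5 higher, with a median of -2.38. Fasn (fatty acid synthase) was at 134, 175, 142 and 79.5 FPKM in liver, against 1028, 1011, 2036 and 1316 FPKM in BAT (-3.33). The carboxylases Acaca and Acacb differed by -3.58 and -2.91, and the desaturase Scd1 averaged 1558 ± 531 FPKM in liver and 9416 ± 3079 FPKM in BAT. The genes that were higher in liver included the polyunsaturated fatty acid enzymes Fads2 (6.31), Fads1 (5.18) and Elovl5 (4.19), and the regulators Srebf1 (1.41) and Mlxipl (0.81), which drive lipogenic genes.

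Cholesterol synthesis was higher in liver in 20 of 23 genes and lower in 0 (median 1.80). Hsd17b7, a sterol reductase of the path, was at 14.3, 18.5, 15.5 and 19.1 FPKM in liver, against 2.06, 1.89, 1.65 and 1.5 FPKM in BAT (2.68). Sqle (squalene epoxidase) and Idi1 (isopentenyl diphosphate isomerase) differed by 1.56 and 1.53. On the TPM scale the counts were 18 higher and 1 lower.

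Most listed genes of fat storage and its release were lower in liver, and a few were higher. Of 19 genes of lipolysis and the lipid droplet, 15 were lower in liver and 3 higher (median -1.56). The lipases Pnpla2 (ATGL) and Lipe (hormone-sensitive lipase) averaged 33.5 ± 6.64 and 3.67 ± 0.922 FPKM in liver, against 842 ± 47.8 and 247 ± 9.43 FPKM in BAT. Pnpla3, whose human counterpart is known for a variant linked to fatty liver, was at 1.63 ± 0.97 FPKM in liver and 174 ± 41.4 FPKM in BAT. The genes higher in liver were Fitm1 (a fat storage-inducing membrane protein, 5.84), Cideb (a CIDE protein of lipoprotein loading, 4.84) and Lipa (the lysosomal lipase, 1.35). G0s2, the inhibitor of ATGL, did not pass (271 and 340 FPKM on average in liver and BAT).

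Of 27 tested genes of lipid uptake and triglyceride synthesis, 10 were higher and 14 lower in liver (median -0.44). Lpl (lipoprotein lipase) was at 0.944 ± 0.194 FPKM in liver and 247 ± 44.4 FPKM in BAT, and its counterpart Lipc (hepatic lipase) at 91.5 ± 8.29 and 0.023 ± 0.0285 FPKM in the same order. Mttp, which loads lipid onto apolipoprotein B, was 82.4-fold higher in liver. The fatty acid transporter Cd36 and the glycerol-3-phosphate dehydrogenase Gpd1 differed by -3.70 and -3.02.

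Some genes that mark lipid storage in fatty liver were present in these livers but at a small part of their BAT level. Of 15 such genes, 11 were lower in liver and 3 higher (median -3.70). Cidea, which fuses lipid droplets in brown fat, was at 2.91, 92.1, 24.96 and 7.93 FPKM in liver, against 1509, 1365, 1523 and 1327 FPKM in BAT. Cidec was at 11.8, 59.5, 48.7 and 19.7 FPKM in liver, against 562, 567, 511 and 446 FPKM in BAT. Liver library 2 was the highest for both genes and library 1 the lowest, yet no liver library reached any BAT library. The SD of log2(FPKM + 1) over liver libraries was 1.98 for Cidea, the largest among genes of 10 FPKM or more, beside a median of 0.133 over all genes.

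Elovl3, an elongase listed here among brown fat genes, was higher in liver. It was at 295, 368, 439 and 369 FPKM in liver, against 37.4, 41.1, 89.1 and 19.3 FPKM in BAT, 7.87-fold higher in liver (3.14 ± 0.38 SE, limma adjusted p = 4.72e-05). The lowest liver library was above the highest BAT library. In vehicle white fat it averaged 0.442 ± 0.219 FPKM (epididymal) and 3.25 ± 0.899 FPKM (inguinal). Eva1a, another gene of the thermogenesis list, was higher in liver too (4.54).

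**Figure D4:**
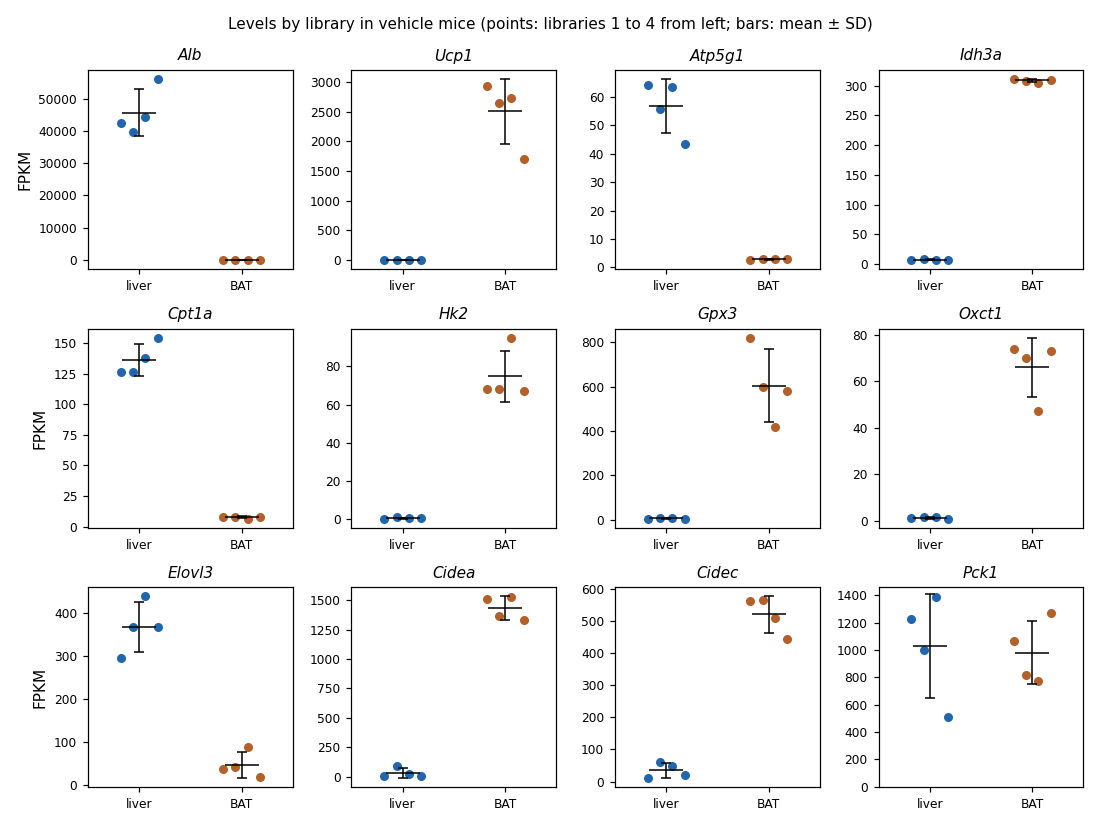
FPKM of 12 genes in each of the 4 liver and 4 BAT libraries, with mean and SD. Alb, Atp5g1, Cpt1a and Elovl3 lie higher in every liver library than in any BAT library, Ucp1, Idh3a, Hk2, Gpx3, Oxct1, Cidea and Cidec lower, and Pck1 overlaps.

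Of 27 tested genes of brown fat thermogenesis (of 32 listed), 23 were lower in liver and 3 higher, with a median of -3.16. The list was drawn up as one of brown fat genes, so its direction is no finding. Besides Ucp1, Cox8b, Fabp3, Cidea and Pdk4, the proton channel gene Otop1 differed by -6.12, the potassium channel gene Kcnk3 by -5.60 and the ATP receptor gene P2rx5 by -5.25. Otop1 averaged 0.00635 ± 0.0127 FPKM in liver, with 1 read in all, beside 4.86 ± 1.39 FPKM in epididymal and 10.4 ± 0.468 FPKM in inguinal white fat of vehicle mice. Creatine handling was divided: Gamt, the last step of creatine synthesis, was 32.1-fold higher in liver, and the creatine kinase Ckb and the transporter Slc6a8 differed by -1.73 and -1.50. Ckm, Ckmt2 and Atp2a1 were also lower in liver, and they are muscle genes that were highest in BAT library 4. None of these 3 calls held when libraries were weighted by their quality.

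Ketone body genes differed in both directions. Bdh1, which turns acetoacetate into beta-hydroxybutyrate, was at 147, 161, 146 and 151 FPKM in liver, against 0.0386, 0.0975, 0.0376 and 0.165 FPKM in BAT (7.13). Oxct1, which is needed to burn ketone bodies, was at 0.957, 1.42, 1.495 and 0.791 FPKM in liver, against 74.0, 69.9, 47.1 and 73.1 FPKM in BAT, 56.7-fold lower in liver (-4.94 ± 0.17 SE). Of the 8 genes listed, 4 were higher in liver and 3 lower (with the monocarboxylate transporter Slc16a1 at -2.17).

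Among genes of nitrogen metabolism, those of the urea cycle were higher in liver without exception, a direction that is no finding. All 8 were higher (median 6.65), and Cps1, which starts the cycle, averaged 483 ± 99.6 FPKM in liver with no read in BAT. Of 30 genes of hepatic amino acid breakdown, 29 were higher and 0 lower (median 7.01). Tat (tyrosine aminotransferase, a glucocorticoid-regulated enzyme) was at 834, 877, 1199 and 276 FPKM in liver and had no read in BAT. Cdo1, which turns cysteine toward taurine, was among the closest of the list (1453 FPKM in liver and 924 FPKM in BAT on average, 0.65, but -0.23 after quantile normalisation). Of 22 genes of branched-chain amino acid breakdown, 4 were higher and 12 lower (median -0.30), against 2 higher and 17 lower on the TPM scale (median -0.68) and 2 higher and 19 lower after quantile normalisation (median -0.90). Its control genes went opposite ways: Bckdk, the kinase that switches the pathway off, was at 5.79 ± 0.416 FPKM in liver and 39.0 ± 5.99 FPKM in BAT (-2.55), and Ppm1k, the phosphatase that switches it on, at 18.7 ± 2.61 and 1.99 ± 0.531 FPKM in the same order (2.73).

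Most listed genes of bile acid and drug metabolism were higher in liver, again a direction that is no finding. All 23 bile acid genes were higher (median 6.01, or 6.13 with genes without reads set at their bound). Cyp8b1 averaged 361 ± 39.4 FPKM in liver and 0.0888 ± 0.0413 FPKM in BAT, the bile salt export pump Abcb11 differed by 7.23, and Cyp7a1, the rate-limiting enzyme of bile acid synthesis, was at 6.84, 7.40, 2.71 and 17.0 FPKM in liver with no read in BAT. Of 31 tested genes of xenobiotic metabolism, 28 were higher in liver and 1 lower (median 6.10). Cyp2e1, an ethanol-inducible cytochrome P450, averaged 4061 ± 309 FPKM in liver and 2.22 ± 0.497 FPKM in BAT, and the carboxylesterase Ces1d was the lower one (-0.53). Several of these genes belong to families with close copies, between which reads may have been split.

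All 47 genes of secreted plasma proteins were higher in liver (median 8.39, or 8.93 with genes without reads at their bound). They took 18.6% to 22.3% of reads in liver, against 0.221% to 0.348% in BAT. Haptoglobin (Hp), which adipocytes also make, was closest to even, at 3249 FPKM in liver and 1162 FPKM in BAT on average (1.51). Of 18 tested genes of liver hormones and secreted regulators, 16 were higher and 2 lower. Hamp (hepcidin, the iron hormone) averaged 1673 ± 413 FPKM in liver with 3 reads in BAT, Igf1 differed by 4.14, and Fgf21 was at 21.9 ± 6.90 FPKM in liver and 2.05 ± 1.81 FPKM in BAT (3.03). Of 17 tested genes of fat hormones and secreted regulators, 13 were lower in liver and 3 higher. Cfd (adipsin) was at 1.31, 3.51, 25.7 and 2.08 FPKM in liver, against 297, 269, 168 and 227 FPKM in BAT. Lep averaged 98.7 ± 41.5 FPKM in BAT, beside 714 ± 207 FPKM in epididymal and 1651 ± 81.9 FPKM in inguinal white fat of vehicle mice.

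Transcription factors of the hepatocyte were higher in liver, and 10 of the 25 listed had no read in BAT. Members of this list were picked as factors of liver, so their direction is no finding. Of 23 tested genes, 20 were higher in liver and 0 lower (median 3.02, or 5.20 with genes without reads at their bound). Hnf4a was at 189, 170, 202 and 210 FPKM in liver and had no read in BAT. Foxa2, which opens chromatin at liver genes, was at 19.4, 18.6, 18.2 and 46.1 FPKM in liver with no read in BAT. The C/EBP factors that act in both cell types did not pass: Cebpa averaged 295 ± 21.9 FPKM in liver and 244 ± 71.5 FPKM in BAT, and Cebpb 177 ± 57.1 and 228 ± 81.5 FPKM in the same order. Ppara, the receptor behind fatty acid oxidation genes, did not pass either (24.8 ± 3.01 FPKM in liver, 19.6 ± 4.49 FPKM in BAT, 0.34).

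Of 19 tested adipocyte transcription factors, 13 were lower in liver and 2 higher (median -1.33). Pparg, the master regulator of adipocytes, was at 5.92, 10.01, 5.02 and 6.38 FPKM in liver, against 111, 97.5, 108 and 102.9 FPKM in BAT (-3.79). Ebf2, a factor of brown fat identity, had no read in liver and 6.94 ± 1.65 FPKM in BAT. The coactivators Ppargc1b and Ppargc1a and their partner Esrra, which drive mitochondrial genes, differed by -2.17, -1.33 and -1.68. Klf15, a factor of amino acid and glucose metabolism in liver, was higher in liver (103.1 ± 23.4 FPKM, against 7.49 ± 1.72 FPKM in BAT).

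Receptors and signalling genes differed by family. Of 27 tested genes of adrenergic and insulin signalling, 17 were lower in liver and 8 higher (median -1.07). The glucagon receptor gene Gcgr averaged 208 ± 18.7 FPKM in liver and 0.0527 ± 0.018 FPKM in BAT, and the alpha-1B adrenergic receptor Adra1b 40.7 ± 2.50 and 0.101 ± 0.0893 FPKM in the same order. Its relative Adra1a differed by -2.05, and the beta receptors Adrb1 and Adrb3 by -3.16 and -4.51. Fgfr4, the liver receptor for FGF19 family hormones, was higher in liver (4.58) and Fgfr1, the receptor of fat, lower (-2.83).

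Antioxidant genes showed no common direction. Of 30 genes of thioredoxin, glutathione and superoxide defence, 13 were higher and 15 lower in liver, with a median of -0.21. Gpx3, the secreted glutathione peroxidase, was at 5.09 ± 1.82 FPKM in liver and 605 ± 165 FPKM in BAT (-6.65). Gclc and Gclm, the 2 subunits of the enzyme that starts glutathione synthesis, differed by 4.55 and 2.90. The targets of auranofin, the thioredoxin reductases, differed by 0.98 for the cytosolic Txnrd1 (30.2 ± 3.08 FPKM in liver, 14.8 ± 1.38 FPKM in BAT) and by -0.57 for the mitochondrial Txnrd2. The mitochondrial Sod2 and Prdx3 were lower in liver (-1.40 and -1.17), and the cytosolic Sod1 and Prdx1 higher (1.55 and 1.57).

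Cytosolic ribosomal protein genes depended on the scale. Of 44 genes, 31 were higher and 1 lower in liver on the deposited scale (median 0.50), but 6 were higher and 5 lower on the TPM scale (median 0.11), and 2 higher and 16 lower after quantile normalisation (median -0.16). Many of these genes have processed copies that can share their reads. No direction can be given for this family.

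Markers of the other cells of each tissue also differed, and their part in the results above was not tested. Kupffer cell markers (7 genes, 6 higher in liver) summed to 140.0 to 197.2 FPKM in liver, against 0.751 to 1.38 FPKM in BAT, and Clec4f had no read in BAT. General macrophage markers went the other way, with 1 of 10 genes higher and 6 lower, and summed to 53.5 to 76.3 FPKM in liver, against 118.9 to 248.8 FPKM in BAT. Sinusoidal endothelial markers (6 of 7 higher) summed to 51.3 to 69.3 FPKM in liver, against 3.59 to 6.78 FPKM in BAT. All 11 general endothelial markers were lower in liver, at 41.6 to 51.8 FPKM summed, against 289.1 to 341.4 FPKM in BAT, and Pecam1 (CD31) differed by -3.32.

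Stellate cell markers were higher in 6 of 7 tested genes, while Rgs5, also a pericyte gene, was lower (-3.39), and their summed level overlapped, at 130.5 to 145.2 FPKM in liver and 108 to 147.5 FPKM in BAT. Fibroblast and adipose progenitor markers summed to 63.7 to 89.9 FPKM in liver, against 172.7 to 295.1 FPKM in BAT, with 8 of 10 lower and Dpp4 higher (4.04). Smooth muscle markers summed to 7.17 to 10.1 FPKM in liver, against 39.3 to 72.2 FPKM in BAT, and all 5 tested were lower. Cholangiocyte markers summed to 42.9 to 62.0 FPKM in liver, against 3.78 to 6.18 FPKM in BAT. Of the skeletal muscle markers, 10 of 13 tested were lower in liver, and 7 of 14 (Ckm, Myh1, Myh2, Tnnt3, Tnnc2, Pvalb and Myl1) had no read there. Markers of nerve summed to 1.03 to 1.57 FPKM in liver, against 8.26 to 18.6 FPKM in BAT, and those of neutrophils and mast cells to 1.94 to 7.39 FPKM in liver, against 9.82 to 15.7 FPKM in BAT. Red cell markers overlapped, at 307.7 to 1109 FPKM in liver and 429.9 to 916.8 FPKM in BAT. Markers of T and NK cells (1.62 to 3.85 FPKM in liver, 1.12 to 1.97 FPKM in BAT) and of B cells (9.05 to 13.7 FPKM in liver, 31.7 to 55.7 FPKM in BAT) were low.

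Markers of adipocytes of any depot summed to 1601 to 1956 FPKM in liver, against 5474 to 5881 FPKM in BAT. Nearly all of the liver sum was Car3, a carbonic anhydrase of fat, muscle and liver that was higher in liver (1658 FPKM, against 828 FPKM in BAT on average). The other 9 of 10 were lower in liver. The white adipocyte list (2 of 5 tested higher, 3 lower) summed to 440.6 to 602.1 FPKM in liver, against 97.2 to 225.0 FPKM in BAT, since it holds Agt (angiotensinogen), a plasma protein gene of liver that differed by 8.74.

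**Figure D5:**
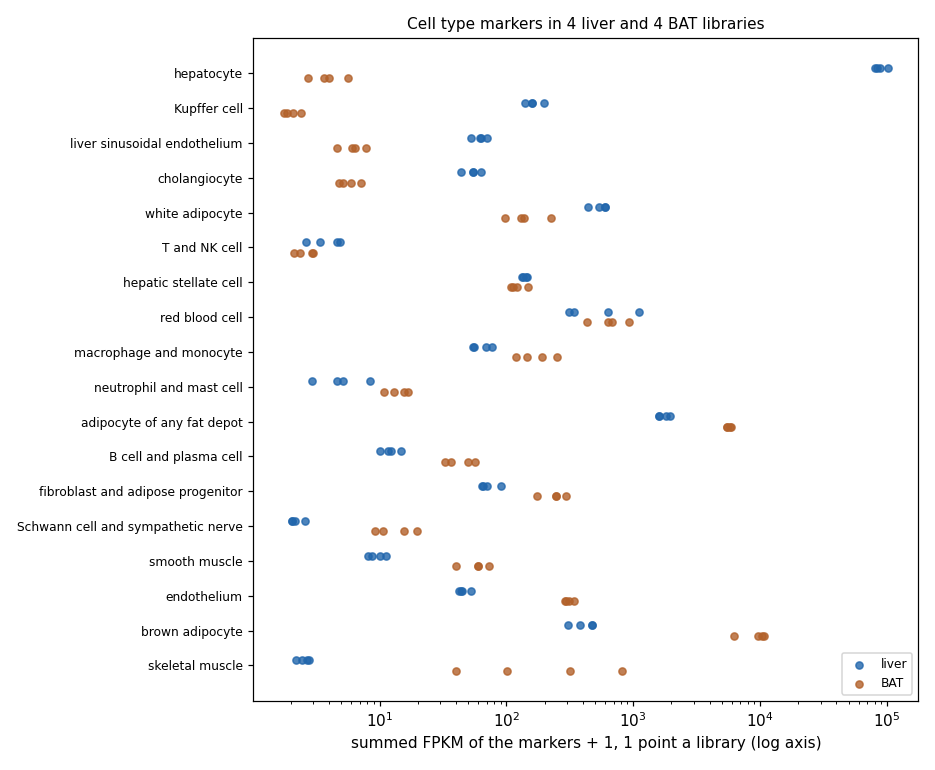
Summed FPKM + 1 of the markers of 18 cell types in each of 4 liver and 4 BAT libraries, on a log axis. Hepatocyte markers are highest in liver, at 80500 to 102400 FPKM, and skeletal muscle markers spread over BAT libraries, at 39.1 to 808.3 FPKM.

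The comparison was repeated in other libraries of the same tissues, 4 of liver and 4 of BAT from mice given auranofin at 1 mg per kg of body weight on the same schedule. There, 13993 genes were tested and 9264 (66.2%) passed, with 4717 higher and 4547 lower in liver. Of the 9677 vehicle calls tested in both arms, 9540 had the same direction, 8281 (85.6%) had it and passed, and 4 passed in the other direction. Of the 4543 calls at 2-fold or more, 4448 (97.9%) had the same direction and passed, and 0 passed in the other. Idh3a differed by -5.12 with auranofin, Atp5g1 by 3.84, Elovl3 by 2.11 and Oxct1 by -4.90.

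Whether auranofin moved the tissues differently was asked in a fit of 16 libraries as the liver change minus the BAT change. Of 13936 genes, 3 (0.0215%) passed, all toward liver, and 1302 had an unadjusted p under 0.05. Timp1, an inhibitor of matrix proteases, was at 0.387 ± 0.217 FPKM in auranofin livers and 0.259 ± 0.0888 FPKM in vehicle livers, and at 0.787 ± 0.352 FPKM in auranofin BAT and 5.80 ± 1.10 FPKM in vehicle BAT. The interaction was 2.06 ± 0.22 (SE, limma adjusted p = 0.00107). Csf2rb, the shared receptor chain for interleukin 3, interleukin 5 and GM-CSF, was at 1.30 ± 0.198 and 0.994 ± 0.193 FPKM in auranofin and vehicle livers and at 3.09 ± 0.303 and 6.46 ± 0.48 FPKM in auranofin and vehicle BAT (1.07, adjusted p = 0.0034). Dok2, an adaptor of blood cells, was at 1.41 ± 0.344 and 0.920 ± 0.0365 FPKM in auranofin and vehicle livers and at 1.33 ± 0.204 and 2.48 ± 0.224 FPKM in auranofin and vehicle BAT (0.90, adjusted p = 0.0439). The count rests on 1 library: without BAT auranofin library 2 it was 170 genes.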

How the data were processed

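Total RNA was sequenced from liver, intrascapular brown, epididymal and inguinal white fat, with a library kit that does not keep strand, so reads of overlapping or antisense genes cannot be parted. The authors deposited FPKM values per gene. CASAVA, STAR 2.6.1d, featureCounts 1.5.0-p3, DESeq2 1.20.0 and the mm10 build are named in the submitters' processing notes. FPKM times gene length came in whole steps per library, from which read counts were rebuilt for depths, reads per gene and 1 alternative fit. Differences were tested with limma 3.58.1 (R 4.3.3, trended variance) on log2(FPKM + 1) in genes with a mean of 0.5 FPKM or more, with Benjamini-Hochberg adjustment over all genes tested and a threshold of 0.05. Only the 4 groups of liver and BAT entered a fit: both vehicle groups for the main comparison, both auranofin groups for the repeat and all 16 libraries for the interaction. Fold changes are ratios of mean FPKM. For a gene without reads in a tissue a floor of 3 reads over its 4 libraries gave a bound. Library shares were compared by two-sided exact permutation tests with scipy 1.17.1. Samples were grouped by the tissue and treatment in the labels. Genes named are members of the pairs, the 12 largest differences in each direction, the 12 highest of the genes at like levels, the 3 largest called differences in each list and direction, the first 3 markers of each cell type and the called genes of the interaction, without predicted genes and near-identical copies. Other genes were named for their role, after their values were seen. The members, lists and pairs were chosen with earlier results of these data known. Deviations from the tissue mean correlated at 0.079, 0.0221, 0.035 and 0.155 between same-numbered liver and BAT libraries. Between libraries of different numbers the values were -0.117 to 0.0754. These values do not settle whether the libraries are paired, so no block was used in the main fit. Pseudocounts, filters, scalings, other fits and each left-out library were tried as alternatives. The fit was checked on simulated data in which few genes differed, which does not test the choice of scale. White fat libraries gave levels only. Some genes of the lists are counted but not reported here by name.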

Additional observations from a re-analysis of the deposited data

Results flagged for a closer look

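Of 314 groups of 4 libraries with at least 1 value of 1 FPKM or more, 21 had a library far from the other 3 by Dixon's test, and chance flags about 1 in 20 groups. BAT library 3 stood apart in 4 genes. It was high in Hk2 (95.1 FPKM, beside 67.3 to 68.4 in the others) and Acaa1b (40.5, beside 17.7 to 21), and low in Oxct1 (47.1, beside 69.9 to 74) and Ebf2 (4.49, beside 7.5 to 8.06). BAT library 4 was low in Plin1 (323, beside 357 to 359) and Sod2 (65.3, beside 81.7 to 84.9), and high in the muscle gene Myh2 (10.7, beside 0 to 1.07) and in reads on the mitochondrial genome (23% of reads, beside 16.7% to 17.5%). BAT library 1 was low in Atp5g1 (2.62, beside 2.88 to 2.92) and high in Atp5b (1986, beside 1660 to 1701) and Csf2rb (7.18, beside 6.2 to 6.26).

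Liver library 4 was high in Foxa2 (46.1, beside 18.2 to 19.4), Ttr (13341, beside 10425 to 10794), Tfam (15.1, beside 13.8 to 13.9) and Bckdk (6.41, beside 5.54 to 5.64), and low in Atp5g3 (202, beside 251 to 253) and Cideb (40.7, beside 45.9 to 46.8). Liver library 3 was high in Cfd (25.7, beside 1.31 to 3.51) and low in Pklr (113, beside 152 to 160). Liver library 2 was high in Cd36 (84.2, beside 52.7 to 56.9) and Scd1 (2349, beside 1212 to 1367). The difference in response to auranofin between liver and BAT was flagged for Timp1 (2.06), Csf2rb (1.07) and Dok2 (0.90).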

How the results depend on the processing

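Under the alternatives for scaling, pseudocount, filter, fit, threshold and gene set, 8494 to 11801 genes were called between tissues and 4278 to 5939 at 2-fold or more, and 9398 to 9761 and 4587 to 4640 with 1 library left out. With the replicate block these were 9839 and 4627. With auranofin, 8767 to 9049 genes were called with 1 library left out. The number of genes called for the auranofin difference, 3 and all toward liver, was 1 with a pseudocount of 0.01 (another gene, toward BAT, and none of the 3), 1 with voom on rebuilt reads (Csf2rb), 41 with sample quality weights and 2 to 170 with 1 library left out (170 without BAT auranofin library 2, 5 without BAT vehicle library 2), and 2 with the replicate block. The cause was not tested. The share of the 10 most read genes differed by 5.1 percentage points for protein-coding genes outside the mitochondrial genome, by -2.94 for 50 genes (exact p = 0.171), by -6.32 with the replicate block (exact p = 0.125, the smallest it allows) and by -7.41 to -4.81 with 1 library left out. Genes with a read differed by -581 with the replicate block, -353 at 10 reads or more (exact p = 0.0571) and -698 to -451 with 1 library left out. In both, leaving out a library allows no exact p under 0.0571. Of 4047 pairs of a named gene and a setting, 18 turned direction, 24 gained a call and 40 lost one, over 26 of 184 genes. On the TPM scale and after quantile normalisation, Pck1 was at -0.381 and -0.826, Fth1 at -0.257 and -0.768, Pygl at -0.309 and -0.618, Cebpa at -0.0686 and -0.25, and Ppara at -0.0297 and -0.0739. After quantile normalisation Cdo1 was at -0.233 and Pcx at -0.216. With 1 library left out Pck1 ranged from -0.164 to 0.314 and Pygl from -0.0221 to 0.173. List medians turned for ribosomal proteins (-0.155, quantile normalisation) and B cells (-0.0612, TPM scale), and 116 of 240 moved by more than the spread between libraries. Without BAT library 4, chosen after seeing the data, the counts of 16 lists changed. Genes lower in liver became 35 for complex I, 39 for complexes II to V, 22 for fatty acid oxidation, 5 for creatine and calcium cycling, 16 for lipolysis and lipid droplets, 12 for lipogenesis, 1 for hepatic amino acid breakdown, 1 for liver hormones, 19 for adrenergic and insulin signalling, 19 for the mitochondrial ribosome and DNA upkeep and 4 for macrophages. Genes higher in liver became 19 for cholesterol synthesis, 21 for liver transcription factors and 7 for sinusoidal endothelium. Branched-chain amino acid breakdown had 5 higher and 11 lower and ribosomal proteins 28 higher and 2 lower. Depth limits genes at a few reads, whose differences depend on the pseudocount.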
